A study of Homo sapiens with 8 samples.

Results

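The colon carcinoma line HT29 was set against 2 others, SW620 and HCT116, all of them established human lines and labelled as colon carcinoma. HT29 was derived from a primary colorectal adenocarcinoma, SW620 from a lymph node metastasis of a colon cancer and HCT116 from a primary colon carcinoma. Each line gave 1 array of cells sorted as ABCB5-negative and 1 array of cells sorted as ABCB5-positive, with an antibody against ABCB5, an ATP-binding cassette transporter of the cell membrane. The comparison therefore used 2 HT29 arrays against 4 arrays of the other lines, 6 of the 8 arrays in the series; the remaining 2, of the line COLO741, were left out. No line received a drug or a genetic change per the labels, and the culture medium, RPMI with serum, was the same for all. For SW620 the overall design text has another name, SW480, and the name on the samples is used here. The members were all genes with a usable probe set, 16910 after genes at the level of background were removed, and the sorted population was a covariate of the fit.

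Colon carcinoma lines keep parts of the programme of the gut lining to different degrees. The colon epithelium holds absorptive colonocytes, which take up salt, water and short fatty acids, goblet cells, which make and secrete mucus, and rare hormone-producing cells, all renewed from stem cells that depend on Wnt signals. HT29 is widely used because it can form absorptive and mucus-secreting cells under suitable culture conditions, whereas SW620 and HCT116 are mostly regarded as poorly differentiated.

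Levels are log2 expression values from Affymetrix Human Gene 1.0 ST arrays, so a difference of 1 is a doubling. Where 2 values are given for a line, the first is the ABCB5-negative and the second the ABCB5-positive array. Differences are HT29 minus the mean of the 4 other arrays, with the standard error (SE) of the limma fit. A level was read as background when it lay at or under 7.50, the 95th percentile of probe sets for odorant receptors, which are not used in the gut. Where all arrays on 1 side lay there, the fold is given as a lower bound, computed against that percentile or the array's own value, whichever was higher.

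The labelled origin was visible in the markers. The 10 intestinal epithelial markers averaged 12.6 and 12.5 in HT29, against 10.8 and 11.03 in SW620 and 10.4 and 10.5 in HCT116, and 9 melanocyte markers averaged 6.70 and 6.82 in HT29 and 6.797 to 6.898 in the other lines. The 17 leukocyte and phagocyte markers averaged 7.21 and 7.16 in HT29, 7.11 and 7.72 in SW620 and 7.14 and 7.16 in HCT116. The SW620 ABCB5-positive array thus stood above the 5 others, with 8 of the 17 markers over the background level, against 3 to 5 on those. Without that array 335 genes were higher and 254 lower in HT29, beside 672 and 703 with it (limma). The fall was not particular to that array. Leaving out any other SW620 or HCT116 array instead gave 276 to 294 genes higher and 223 to 268 lower (limma). The 13 fibroblast and endothelial markers averaged 7.30 and 7.24 in HT29, 7.37 and 7.45 in SW620 and 7.06 and 7.09 in HCT116. No member of the melanocyte, leukocyte or fibroblast and endothelial lists was called in either direction. ABCB5 itself was at background, at 5.36 and 5.24 in HT29 and 5.25 to 5.69 in the other lines.

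HT29 differed from both other lines in 1375 genes. At an adjusted p under 0.05 (limma), 672 of 16910 genes were higher in HT29 (3.97%) and 703 were lower (4.16%). In every one of these genes both HT29 arrays lay outside the range of the 4 others. In none did the HT29 mean lie between those of SW620 and HCT116. The fit counts the difference between SW620 and HCT116 as error, so a gene with HT29 between them can hardly pass. The absence of overlap is thus no separate evidence, and its share over all genes is not given here. A difference of at least 4-fold with no overlap was met by 214 genes higher in HT29 (1.27%) and by 143 lower (0.846%). In 94 of the 214 all 4 arrays of SW620 and HCT116 were at background, and in 77 of the 143 both HT29 arrays were. The median difference over all genes was -0.001.

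The 2 arrays of a line are sorted fractions of that line, not independent lines. The p-values therefore measure the spread between arrays, which includes the difference between SW620 and HCT116 and may be technical in part. They speak for these 3 lines alone. With the cell line as a random block, which had an estimated correlation of 0.812, 108 genes were higher (0.639%) and 65 lower (0.384%), and all of them were among the 1375. Among the 357 genes past the 4-fold rule, 160 passed with that block. With 1 mean per line the counts were 0 and 0 by limma, with 1160 genes at an unadjusted p under 0.05. The fit rests on both HT29 arrays: without the ABCB5-negative one the counts were 0 higher and 0 lower, and without the ABCB5-positive one 20 and 5.

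By correlation HT29 was slightly farther from SW620 and HCT116 than these were from each other. Across the tested genes the HT29 arrays correlated at 0.901 to 0.906 with SW620 and at 0.907 to 0.912 with HCT116, against 0.917 to 0.918 between SW620 and HCT116 and 0.996 between the HT29 arrays. At 4-fold HT29 lay above SW620 in 397 genes, above HCT116 in 383 and above both in 203. It lay below SW620 in 417 genes, below HCT116 in 359 and below both in 146. Only 9 genes were 4-fold above 1 line and 4-fold below the other. These are counts of mean differences with no test.

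**Figure D1:**
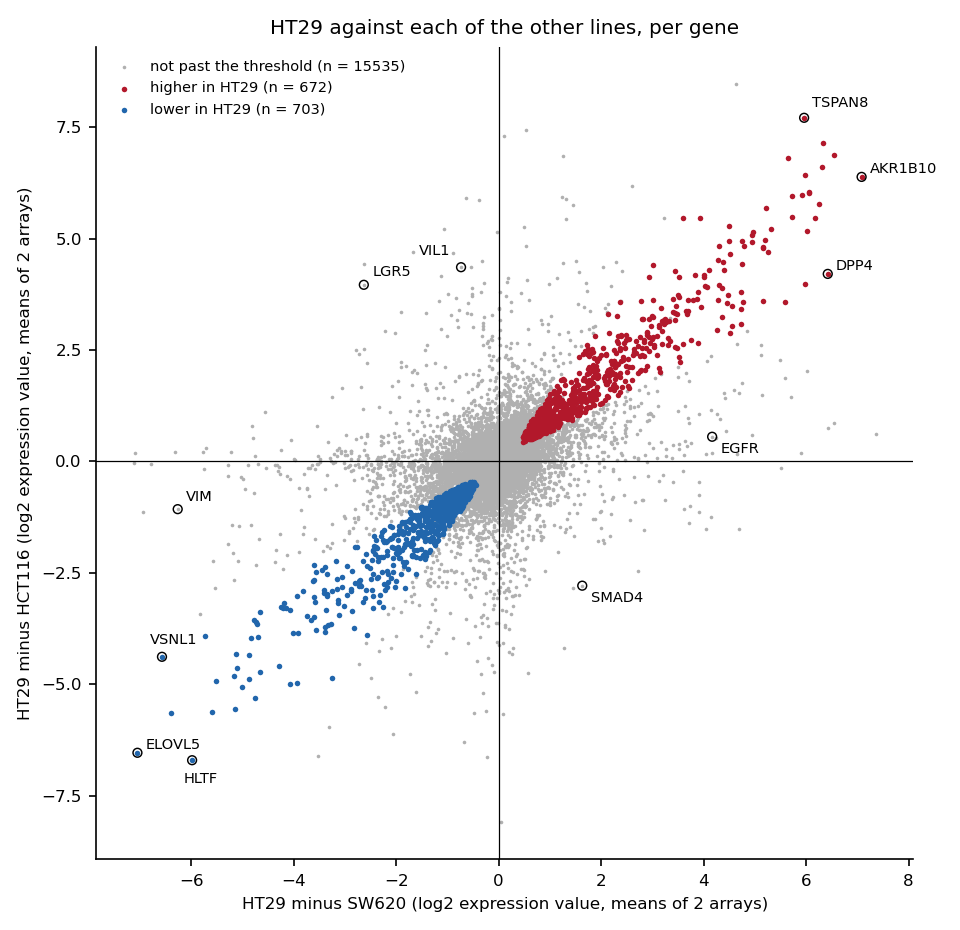
Each point is 1 gene, with the HT29 minus SW620 difference on the x axis and the HT29 minus HCT116 difference on the y axis, both in log2 expression values. The 672 red and 703 blue genes lie where both differences have 1 sign. EGFR and VIM lie there too, each with a much larger difference against SW620 than against HCT116, and LGR5 and SMAD4 lie where the signs are opposite; none of these 4 was called.

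The 3 largest positive differences in HT29 were those of TSPAN8, AGR2 and AKR1B10. TSPAN8, a tetraspanin of the epithelial surface, measured 12.77 and 12.44 in HT29, against 5.93 and 7.36 in SW620 and 4.87 and 4.93 in HCT116. AGR2, an endoplasmic reticulum enzyme that helps mucins fold, measured 12.73 and 12.35 in HT29, against 5.71 and 6.70 in SW620 and 5.24 and 5.56 in HCT116. AKR1B10, an aldo-keto reductase that reduces retinal, measured 13.01 and 12.27 in HT29, against 5.62 and 5.49 in SW620 and 6.25 and 6.26 in HCT116. For all 3 the other lines were at background, and the folds were at least 34.5 for TSPAN8, 33.0 for AGR2 and 35.3 for AKR1B10. Their differences were 6.83 ± 0.80, 6.74 ± 0.43 and 6.73 ± 0.34 (SE), with adjusted p = 0.0167, 0.00414 and 0.0024 (limma). Of the 15 genes with the largest positive differences, all but TSPAN8 passed with the random block.

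Another 4 of the 15 were close to equal in SW620 and HCT116. FFAR4, a receptor for long fatty acids, measured 13.20 and 13.05 in HT29, against 7.09 and 7.06 in SW620 and 6.95 and 7.21 in HCT116. HCAR1, the lactate receptor, measured 11.75 and 11.78 in HT29, against 5.76 and 5.65 in SW620 and 5.75 and 5.74 in HCT116. NMUR2, a receptor for neuromedin peptides, measured 12.92 and 12.79 in HT29, against 7.03 and 6.86 in SW620 and 6.95 and 6.78 in HCT116. These 3 receptors were at background on all 4 arrays of the other lines. The differences were 6.05 ± 0.12 for FFAR4, 6.04 ± 0.09 for HCAR1 and 5.95 ± 0.09 for NMUR2 (SE), which set the folds at no less than 49.3, 19.3 and 40.9, with adjusted p = 0.000682, 0.000421 and 0.000421 (limma). HPGD, the enzyme that inactivates prostaglandins, measured 11.57 and 11.80 in HT29, against 5.89 and 6.03 in SW620 and 6.02 and 6.39 in HCT116 (adjusted p = 0.000866, limma, at least 18.2-fold).

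The remaining 8 of the 15 began with a keratin and a galectin of the gut. KRT20, the keratin of mature gut epithelium, measured 12.87 and 13.01 in HT29, against 6.71 and 6.67 in SW620 and 7.18 and 7.13 in HCT116 (at least 43.4-fold). LGALS4, a galectin of the gut surface, measured 14.05 and 13.94 in HT29, against 8.38 and 8.17 in SW620 and 8.10 and 7.97 in HCT116, a fold of 57.2. GCNT3, a branching enzyme of mucin sugars, measured 13.97 and 13.89 in HT29, against 7.90 and 7.63 in SW620 and 8.45 and 8.51 in HCT116, a fold of 56.0. LGALS4 and GCNT3 were above background on all 6 arrays, unlike the other 13. TM4SF4, a membrane protein of the tetraspan type, was higher by at least 49.6-fold, MMP7, the epithelial protease matrilysin, by 48.3-fold or more, and ALDH1A1, which makes retinoic acid from retinal, by 43.5-fold or more. ANKRD22 was higher by at least 20.8-fold and SLITRK6, a membrane protein known from neurite growth, by at least 16.0-fold.

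The 3 largest negative differences in HT29 were those of ELOVL5, HLTF and SYT1. ELOVL5, which lengthens polyunsaturated fatty acids, measured 6.76 and 6.26 in HT29, against 13.62 and 13.50 in SW620 and 13.04 and 13.04 in HCT116 (difference -6.79 ± 0.25 SE, adjusted p = 0.00131, limma). HLTF, a helicase that remodels stalled replication forks and whose promoter is known to be methylated in many colon cancers, measured 5.18 and 5.17 in HT29, against 11.20 and 11.11 in SW620 and 11.90 and 11.84 in HCT116 (-6.34 ± 0.30 SE, adjusted p = 0.00207, limma). SYT1, the calcium sensor of secretory vesicles, measured 7.08 and 6.59 in HT29, against 13.20 and 13.25 in SW620 and 12.43 and 12.53 in HCT116 (-6.02 ± 0.34 SE, adjusted p = 0.00301, limma). All 3 were at background in HT29, so their levels were lower by at least 55.8-fold for ELOVL5, 16.2-fold for HLTF and 40.9-fold for SYT1.

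CD109, a membrane-anchored partner of the TGF-beta receptor, measured 5.6 and 6.04 in HT29, against 11.59 and 11.22 in SW620 and 11.45 and 11.40 in HCT116. PSTPIP2, a membrane-bending adaptor protein, measured 5.69 and 5.63 in HT29, against 10.65 and 10.97 in SW620 and 11.20 and 11.21 in HCT116. Both were at background in HT29 and lower by at least 15.1-fold and 11.4-fold. OXCT1, needed to burn ketone bodies, was lower by 20.3-fold or more, and ECI2, an isomerase of fatty acid oxidation, by 13.8-fold or more. GAL, the neuropeptide galanin, measured 8.01 and 8.24 in HT29, against 13.12 and 13.32 in SW620 and 12.76 and 12.73 in HCT116, a fold of 29.0. VSNL1, a neuronal calcium sensor, measured 6.79 and 6.31 in HT29, against 13.13 and 13.12 in SW620 and 10.92 and 10.95 in HCT116. VSNL1 was higher in SW620 than in HCT116 on both arrays, and it passed without the random block (adjusted p = 0.0361, limma) but not with it. CPPED1, a phosphatase, and CNN3, an actin-binding calponin, did not pass with the block either.

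ANTXR1, an anthrax toxin receptor that binds collagen, FERMT2, an activator of integrins, SGCE, a sarcoglycan, and FAM169A completed the list. They were at background in HT29 and lower by at least 12.8-fold, 9.43-fold, 12.0-fold and 8.24-fold. Of the 15, 12 passed with the random block and 13 were at background on both HT29 arrays, the exceptions being GAL and CNN3.

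**Figure D2:**
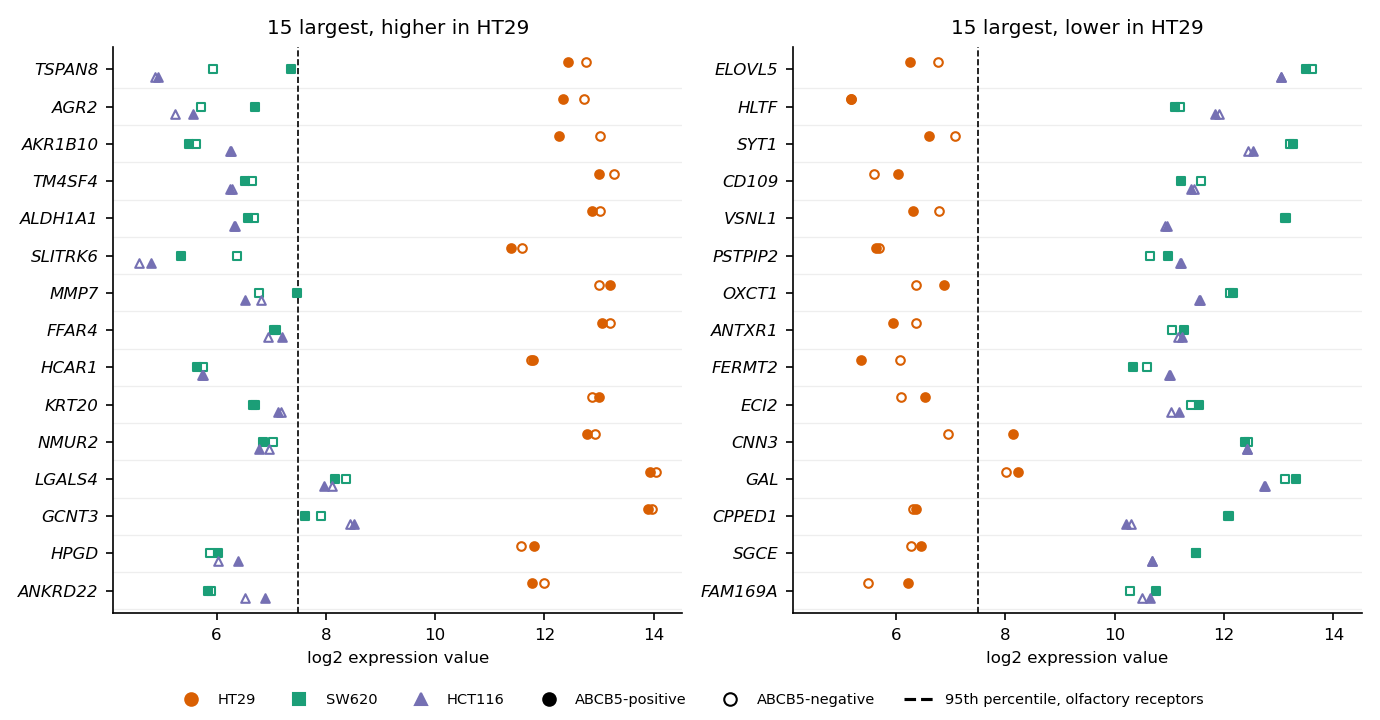
Log2 expression value (x axis) on each of the 6 arrays for the 15 largest positive (left) and the 15 largest negative (right) HT29 differences, with circles for HT29, squares for SW620 and triangles for HCT116, filled for ABCB5-positive cells. In every row the circles stand apart from the other symbols, and on the dim side most symbols lie left of the dashed line at 7.50, the 95th percentile of olfactory receptor probe sets.

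The promoters of the genes past the 4-fold rule differed in base composition. The promoters were 300 bases around the RefSeq start on GRCh38.p14. Those on chromosome 8, where 12.5% of tested genes were lower, were left out of both groups and of all genes. Promoters were matched for 162 genes higher in HT29, 112 lower and 13186 of all genes tested. Their median GC content was 58.0% for the genes higher, 66.0% for the genes lower and 64.0% for all. The median number of CpG dinucleotides, the sites where cytosine is methylated, was 11 for the genes higher, 26 for the genes lower and 24 for all.

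Short motifs were searched on both strands, and motifs may overlap. GTTAAT, 1 arm of the site bound by HNF1 factors of liver and gut, was in 11.1% of promoters of genes higher, 2.68% of those lower and 4.47% of all. TTTATG, bound by caudal factors such as CDX2, was in 15.4% of those higher, 4.46% of those lower and 6.55% of all. TGANTCA, the AP-1 site, was in 14.2%, 5.36% and 5.25% in the same order. CAAAGTCCA, bound by HNF4, was in 0% of both groups and in 0.296% of all. TTTATG within 20 to 35 bases before the start, a window chosen after the matches were seen and the usual place of the TATA box, was in 4.94% of promoters higher, 0.893% of those lower and 0.88% of all. The genes higher have promoters richer in A and T, and the part of that in the motif shares was not tested. A match is a match of letters and says nothing of binding.

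The share of promoters with any of the motifs was not computed over all genes. Of the 15 genes with the largest negative differences, ELOVL5 alone has a match, of AP-1, and GAL and SGCE had no promoter to search. Of the 15 genes with the largest positive differences, AKR1B10 and HCAR1 had no promoter to search, and 9 have a match in the promoter. The promoters of 5 of them, KRT20, AGR2, TM4SF4, MMP7 and GCNT3, were chosen after the matches were seen, to show each motif, and are printed 5′ to 3′ along each gene's strand with the matches in capitals. In KRT20, AGR2 and HPGD the caudal letters lie 29 bases before the start and in TSPAN8 17 bases before it. The HPGD promoter differs from the others in composition, with 71.0% GC and 34 CpG sites. ANKRD22 and SLITRK6 hold the AP-1 letters 58 and 20 bases before the start. KRT20 and TM4SF4 hold the HNF1 letters 138 and 139 bases before it, and MMP7 holds all 3 motifs. A match on the opposite strand reads ATTAAC or CATAAA.
KRT20 (GRCh38.p14, chr17:40885193-40885492, minus strand): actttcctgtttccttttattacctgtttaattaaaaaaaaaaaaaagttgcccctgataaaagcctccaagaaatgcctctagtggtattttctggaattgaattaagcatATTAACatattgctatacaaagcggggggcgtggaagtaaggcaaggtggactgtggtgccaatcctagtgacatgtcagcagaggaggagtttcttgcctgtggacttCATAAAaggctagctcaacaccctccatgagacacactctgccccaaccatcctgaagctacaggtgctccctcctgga
AGR2 (GRCh38.p14, chr7:16804950-16805249, minus strand): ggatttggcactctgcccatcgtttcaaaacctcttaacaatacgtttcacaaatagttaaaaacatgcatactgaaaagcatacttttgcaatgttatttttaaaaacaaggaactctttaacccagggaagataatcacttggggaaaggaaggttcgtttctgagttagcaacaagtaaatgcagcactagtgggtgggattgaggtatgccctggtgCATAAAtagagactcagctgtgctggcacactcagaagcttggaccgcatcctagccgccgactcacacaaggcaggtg
TM4SF4 (GRCh38.p14, chr3:149474447-149474746, plus strand): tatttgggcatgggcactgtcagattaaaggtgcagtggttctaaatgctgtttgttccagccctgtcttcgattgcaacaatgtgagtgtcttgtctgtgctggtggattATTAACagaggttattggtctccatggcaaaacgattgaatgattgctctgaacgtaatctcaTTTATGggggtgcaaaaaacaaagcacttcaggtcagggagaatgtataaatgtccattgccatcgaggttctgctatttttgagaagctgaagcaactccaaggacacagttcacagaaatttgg
MMP7 (GRCh38.p14, chr11:102530698-102530997, minus strand): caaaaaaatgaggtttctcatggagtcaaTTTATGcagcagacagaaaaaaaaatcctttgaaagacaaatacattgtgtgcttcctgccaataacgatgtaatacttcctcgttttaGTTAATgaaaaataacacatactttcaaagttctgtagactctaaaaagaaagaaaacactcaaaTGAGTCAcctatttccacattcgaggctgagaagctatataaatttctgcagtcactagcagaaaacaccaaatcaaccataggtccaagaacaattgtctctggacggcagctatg
GCNT3 (GRCh38.p14, chr15:59611533-59611832, plus strand): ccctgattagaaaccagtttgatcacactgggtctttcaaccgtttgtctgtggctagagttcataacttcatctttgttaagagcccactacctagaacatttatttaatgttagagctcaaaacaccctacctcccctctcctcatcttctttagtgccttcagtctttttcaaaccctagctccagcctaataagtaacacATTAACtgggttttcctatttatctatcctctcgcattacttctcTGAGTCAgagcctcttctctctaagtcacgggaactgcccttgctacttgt

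The promoter of HLTF, a gene at background in HT29, is shown for contrast, with each CpG in capitals. It holds 27 CpG sites and 64.7% GC and none of the motifs, against 2 CpG sites and 44.0% GC in KRT20. Methylation was not measured in these data.
HLTF (GRCh38.p14, chr3:149086484-149086783, minus strand): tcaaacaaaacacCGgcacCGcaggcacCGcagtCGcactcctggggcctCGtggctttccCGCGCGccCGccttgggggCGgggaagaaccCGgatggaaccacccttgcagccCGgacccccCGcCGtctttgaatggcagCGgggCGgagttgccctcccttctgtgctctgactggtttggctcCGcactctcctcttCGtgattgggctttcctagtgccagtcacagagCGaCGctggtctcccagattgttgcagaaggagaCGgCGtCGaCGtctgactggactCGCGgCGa

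Transcription factors of the gut epithelium were more often called higher than lower in HT29. Of 26 tested, 9 were higher and 1 was lower, beside 3.97% higher and 4.16% lower over all genes, and the median difference was 0.729 beside -0.001. With the random block 4 of the 9 passed, beside 0.639% of all genes. The same shares over all genes apply to the lists that follow. SPDEF, which drives goblet cell maturation, measured 11.08 and 11.40 in HT29, against 8.0 and 7.60 in SW620 and 7.91 and 7.90 in HCT116 (3.39 ± 0.17 SE, adjusted p = 0.00246, limma). FOXA1, a factor that opens chromatin, measured 11.78 and 11.84 in HT29, against 8.55 and 8.46 in SW620 and 9.08 and 9.0 in HCT116 (3.04 ± 0.23 SE, adjusted p = 0.00652, limma). ONECUT2, known from liver and gut development, was 2.31 ± 0.17 higher and HNF4G, a nuclear receptor of the gut, 2.18 ± 0.30 higher (SE). SPDEF, FOXA1 and ONECUT2 passed with the block, and HNF4G did not.

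TFCP2L1, a factor of epithelial ducts, went the other way, at 7.57 and 7.71 in HT29, against 10.97 and 11.21 in SW620 and 10.21 and 9.96 in HCT116 (-2.94 ± 0.43 SE, adjusted p = 0.0273, limma). CDX2, the master factor of intestinal identity, measured 9.03 and 9.15 in HT29, against 9.01 and 9.02 in SW620 and 10.03 and 9.80 in HCT116. HT29 and SW620 thus had nearly equal CDX2 values and HCT116 the higher ones, with a difference of -0.38 ± 0.38 (SE, adjusted p = 0.644, limma).

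Genes of absorptive cells were called higher in part. Of 23 tested, 9 were higher and 0 lower, and 4 passed with the block. CFTR, the chloride channel of the gut surface, measured 11.18 and 10.92 in HT29, against 5.87 and 5.61 in SW620 and 5.71 and 5.97 in HCT116 (5.26 ± 0.15 SE, adjusted p = 0.00106, limma, at least 11.7-fold). DPP4, a peptidase of the brush border, measured 11.76 and 11.66 in HT29, against 5.58 and 4.99 in SW620 and 7.54 and 7.46 in HCT116 (5.31 ± 0.90 SE, adjusted p = 0.04, limma). DPP4 was at background in SW620 and near it in HCT116, and it did not pass with the block. The list's median difference was 0.157, close to that of all genes, since the other 14 members lay between -0.74 for SLC15A1, a peptide carrier named after its value was seen, and 1.81 for VIL1. VIL1, the actin bundler of microvilli, measured 11.72 and 11.65 in HT29, against 12.29 and 12.55 in SW620 and 7.14 and 7.52 in HCT116, so that HT29 was under SW620 and over HCT116.

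Mucin and goblet cell genes held 10 members higher in HT29 and 0 lower among 25 tested, with a median of 0.946, and 6 of the 10 passed with the block. Beside AGR2 and GCNT3, SPINK1, a trypsin inhibitor secreted with mucus, measured 10.11 and 10.44 in HT29, against 5.25 and 5.0 in SW620 and 5.43 and 5.53 in HCT116 (at least 6.87-fold, adjusted p = 0.00171, limma). CREB3L1, a secretory pathway factor, measured 10.92 and 10.96 in HT29, against 7.21 and 6.92 in SW620 and 7.43 and 7.19 in HCT116 (at least 10.9-fold, adjusted p = 0.00147, limma). The other lines were at background for both. MUC2, the gel-forming mucin of the colon, measured 8.35 and 9.26 in HT29, against 7.77 and 7.70 in SW620 and 7.87 and 7.95 in HCT116, and its difference of 0.98 ± 0.24 (SE) missed the threshold (adjusted p = 0.0868, limma). TFF3, a trefoil peptide of goblet cells, measured 9.33 and 10.30 in HT29, against 10.43 and 10.26 in SW620 and 8.33 and 8.03 in HCT116, so that the HT29 ABCB5-positive array lay within the SW620 values and both lay above HCT116.

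Among mucosal defence genes 4 of 20 were higher and 0 lower, with a median of 0.074. LCN2, which binds bacterial siderophores, measured 11.93 and 11.78 in HT29, against 7.71 and 7.29 in SW620 and 7.91 and 8.0 in HCT116 (4.13 ± 0.23 SE, adjusted p = 0.00284, limma). LCN2 was the one of the 4 that passed with the block. S100P, a calcium-binding protein, was 3.86 ± 0.38 higher, SLPI, a protease inhibitor of mucosal fluids, 1.74 ± 0.17 and PI3, an elastase inhibitor, 1.22 ± 0.12 (SE). PIGR, which carries antibodies into the gut lumen, was at background, at 7.41 and 7.04 in HT29 and 6.76 to 7.07 in the other lines.

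The CEACAM family, cell surface proteins of the immunoglobulin type that include the tumour marker CEA, had 3 of 11 members higher and 0 lower. CEACAM6 measured 10.83 and 10.98 in HT29, against 6.35 and 6.43 in SW620 and 6.28 and 6.22 in HCT116 (at least 10.6-fold, adjusted p = 0.000866, limma). CEACAM5, the gene of CEA itself, measured 11.22 and 10.77 in HT29, against 6.76 and 7.24 in SW620 and 6.87 and 6.77 in HCT116 (at least 11.3-fold, adjusted p = 0.00271, limma). Both were at background in SW620 and HCT116. CEACAM7 measured 7.64 and 7.54 in HT29, against 5.78 and 5.70 in SW620 and 5.95 and 6.13 in HCT116, just above background in HT29. CEACAM6 alone passed with the block.

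Ion and water transport genes had 6 of 33 members higher and 2 lower, with a median of 0.235, and 3 of the 6 passed with the block. AQP5, a water channel, measured 11.50 and 11.60 in HT29, against 8.15 and 8.0 in SW620 and 8.16 and 8.31 in HCT116 (3.40 ± 0.13 SE, adjusted p = 0.00131, limma, 10.5-fold). SLC4A4, a sodium bicarbonate carrier, was higher by at least 3.93-fold, and ATP1B1, the beta subunit of the sodium pump, by 3.82-fold. SLC26A2, a sulfate carrier, had a difference of -1.57 ± 0.15 (SE) and P2RX4, an ATP-gated channel, one of -0.79 ± 0.10 (SE), both called lower. SLC12A2, the chloride carrier of the basal side, measured 13.39 and 13.44 in HT29, against 12.63 and 12.21 in SW620 and 11.80 and 11.76 in HCT116, without passing (adjusted p = 0.0695, limma).

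**Figure D3:**
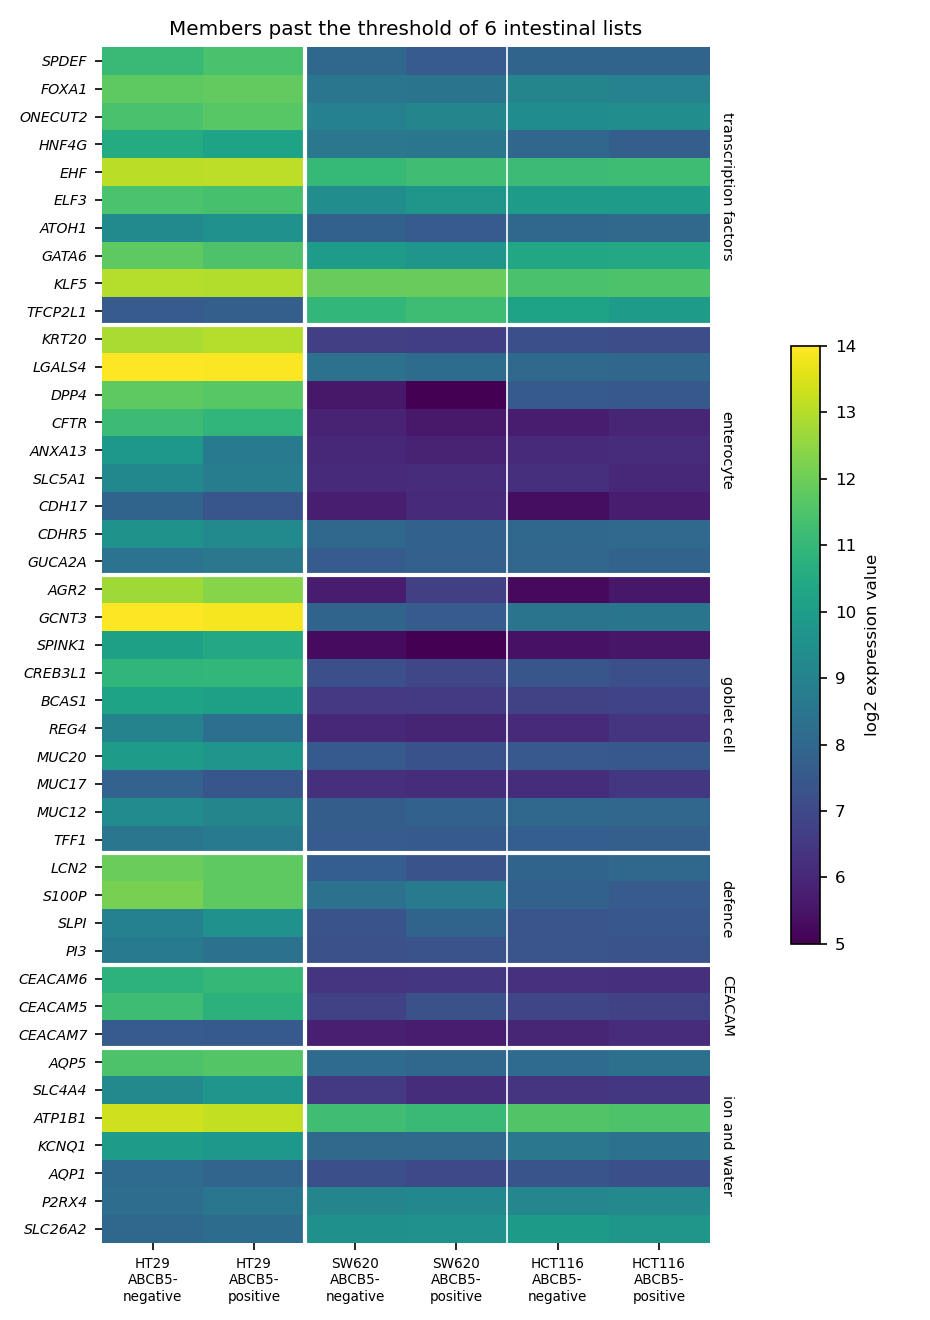
Log2 expression value, as colour, of the 43 genes past the threshold in 6 intestinal lists on each of the 6 arrays, with the HT29 arrays in the left columns. In 40 rows the HT29 cells are brighter than the other 4, and in 3 rows (TFCP2L1, P2RX4 and SLC26A2) they are darker; colours are to be compared along a row.

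Enzymes that build mucosal sugars moved both ways, with 6 of 31 higher, 3 lower and a median of 0.153. Beside GCNT3, ST3GAL1, which caps O-linked sugars with sialic acid, measured 13.02 and 12.98 in HT29, against 7.51 and 7.32 in SW620 and 9.40 and 9.45 in HCT116 (4.58 ± 0.82 SE, adjusted p = 0.0438, limma). GALNT3, which starts O-linked chains, measured 11.83 and 11.70 in HT29, against 6.08 and 8.0 in SW620 and 8.4 and 8.29 in HCT116 (4.07 ± 0.71 SE, adjusted p = 0.0427, limma). For GALNT3 the SW620 arrays stood far apart from each other, and neither gene passed with the block. ST3GAL4, another sialyltransferase, was 2.07 ± 0.30 higher (SE). FUT8, which adds the core fucose of N-linked sugars, measured 9.03 and 9.41 in HT29, against 11.51 and 11.72 in SW620 and 11.14 and 11.18 in HCT116 (-2.17 ± 0.21 SE, adjusted p = 0.0113, limma). GALNT5, which also starts O-linked chains, was at -1.90 ± 0.21 and ST6GAL1, which adds sialic acid to N-linked sugars, at -1.19 ± 0.18 (SE), both called lower.

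Cell junction genes had 5 of 31 members higher and 0 lower, with a median of 0.377. CLDN3, a sealing claudin, measured 13.39 and 13.36 in HT29, against 10.93 and 10.84 in SW620 and 10.61 and 10.68 in HCT116 (2.60 ± 0.13 SE, adjusted p = 0.00246, limma), and was the one that passed with the block. CDH1, the adhesion protein E-cadherin, measured 13.25 and 13.19 in HT29, against 9.98 and 11.46 in SW620 and 11.26 and 11.19 in HCT116 (2.25 ± 0.42 SE, adjusted p = 0.049, limma). CLDN2, a claudin that forms cation pores, was at background in SW620 and HCT116 and at least 1.75-fold higher in HT29, and CLDN4 was 0.97 ± 0.18 higher (SE). EPCAM, the general epithelial surface marker, measured 13.77 and 13.70 in HT29, against 13.43 and 13.50 in SW620 and 13.32 and 13.35 in HCT116, and was not called (adjusted p = 0.146, limma). Among 10 intestinal epithelial markers 4 were higher, KRT20, LGALS4, CDH1 and CDH17, an intestinal cadherin at 7.91 and 7.42 in HT29 and 5.34 to 6.06 in the other lines.

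Among 14 keratins 2 were higher and 1 lower. KRT13, a keratin of stratified mucosa, measured 11.25 and 11.13 in HT29, against 8.15 and 8.15 in SW620 and 8.63 and 8.51 in HCT116 (2.83 ± 0.19 SE, adjusted p = 0.00467, limma). KRT23 measured 7.89 and 8.35 in HT29, against 10.08 and 11.09 in SW620 and 10.11 and 10.10 in HCT116 (-2.22 ± 0.29 SE, adjusted p = 0.0221, limma). KRT8 and KRT18, the keratins of all simple epithelia, had differences of 0.36 ± 0.14 and 0.39 ± 0.16 (SE) and were not called.

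Mesenchymal and invasion genes had 4 of 38 members lower and 1 higher, MMP7, with a median of -0.193. CALD1, which binds actin and tropomyosin, measured 7.54 and 7.51 in HT29, against 10.90 and 10.86 in SW620 and 10.54 and 10.44 in HCT116 (-3.16 ± 0.18 SE, adjusted p = 0.00308, limma), and passed with the block. QKI, an RNA-binding protein that shapes splicing, measured 5.43 and 5.51 in HT29, against 7.92 and 7.38 in SW620 and 7.95 and 7.90 in HCT116 (at least 1.22-fold lower, adjusted p = 0.00769, limma). TPM2, a tropomyosin, had a difference of -1.55 ± 0.25 and SNAI1, a repressor of E-cadherin, of -1.34 ± 0.25 (SE), both called lower.

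The best known mesenchymal genes separated the 3 lines from each other instead. VIM, the filament protein vimentin, measured 7.08 and 7.43 in HT29, against 13.60 and 13.43 in SW620 and 8.37 and 8.27 in HCT116. ZEB1, a repressor of epithelial genes, measured 6.91 and 7.22 in HT29, against 10.65 and 10.07 in SW620 and 8.95 and 9.05 in HCT116. Both were at background in HT29 and highest in SW620, and with differences of -3.67 ± 2.10 for VIM and -2.61 ± 0.59 for ZEB1 (SE) neither passed (adjusted p = 0.401 and 0.0718, limma).

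Integrin subunits, the receptors for matrix, had 3 of 23 members higher and 0 lower, all beta chains, and 0 passed with the block. ITGB6 measured 10.39 and 10.94 in HT29, against 7.55 and 7.91 in SW620 and 6.32 and 6.72 in HCT116 (3.54 ± 0.50 SE, adjusted p = 0.0248, limma). ITGB8 was 1.18 ± 0.21 and ITGB4, the partner of hemidesmosomes, 1.06 ± 0.15 higher (SE). ITGB1 and ITGA6 were not called, with differences of 0.36 ± 0.20 and 0.45 ± 0.22 (SE).

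No ERBB receptor or ligand was called among 15 tested. EGFR, the receptor for epidermal growth factor, measured 10.80 and 11.49 in HT29, against 6.76 and 7.19 in SW620 and 10.66 and 10.52 in HCT116, so that HT29 lay 0.55 above HCT116 and 4.17 above SW620, which was at background. ERBB3 measured 11.36 and 11.25 in HT29, against 10.76 and 10.72 in SW620 and 9.41 and 9.41 in HCT116.

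Of 34 other receptor kinases and ligands 2 were higher and 3 lower. EFNB1, a ligand of Eph receptors, measured 12.06 and 12.03 in HT29, against 9.62 and 10.29 in SW620 and 9.61 and 9.64 in HCT116 (2.25 ± 0.22 SE, adjusted p = 0.0115, limma). MST1R, the receptor of macrophage-stimulating protein, was 1.02 ± 0.13 higher (SE). FGFR1, a fibroblast growth factor receptor, measured 7.37 and 7.10 in HT29, against 9.91 and 9.95 in SW620 and 10.03 and 10.03 in HCT116 (-2.74 ± 0.12 SE, adjusted p = 0.00179, limma, at least 5.58-fold lower). MERTK and TYRO3, which bind the ligand GAS6, differed by -1.59 ± 0.14 and -0.81 ± 0.11 (SE), and FGFR1 alone of the 5 passed with the block. MET and IGF1R were not called, at 0.63 ± 0.28 and 1.00 ± 0.71 (SE).

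Output and feedback genes of the MAP kinase pathway showed 1 of 26 higher and 1 lower, near the shares of 3.97% and 4.16% over all genes. SPRED1, an inhibitor of RAS signalling, measured 12.12 and 12.16 in HT29, against 11.12 and 11.11 in SW620 and 11.16 and 11.03 in HCT116 (1.04 ± 0.09 SE, adjusted p = 0.0092, limma). ETV1, a factor induced by the pathway, measured 8.45 and 8.88 in HT29, against 10.93 and 10.86 in SW620 and 10.26 and 10.15 in HCT116 (-1.89 ± 0.32 SE, adjusted p = 0.0386, limma). DUSP6, a phosphatase that dampens the pathway, measured 11.41 and 11.45 in HT29, against 11.45 and 11.34 in SW620 and 12.15 and 12.23 in HCT116. SPRY2, another feedback inhibitor, had differences of -1.39 against SW620 and 1.60 against HCT116.

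Wnt targets and feedback genes had 3 of 31 members higher and 0 lower, with a median of -0.119, and 0 passed with the block. LGR4, a receptor for R-spondin, measured 12.79 and 12.42 in HT29, against 10.17 and 10.29 in SW620 and 8.91 and 9.14 in HCT116 (2.98 ± 0.51 SE, adjusted p = 0.0405, limma). RNF43, which removes Wnt receptors from the surface, was 1.38 ± 0.19 higher and PROM1, a membrane protein used as a stem cell marker, 1.23 ± 0.18 (SE). LGR5, the marker of gut stem cells, measured 10.30 and 9.86 in HT29, against 12.71 and 12.71 in SW620 and 6.2 and 6.04 in HCT116. AXIN2, a direct Wnt target, measured 11.20 and 11.16 in HT29, against 12.56 and 12.64 in SW620 and 9.54 and 9.51 in HCT116. HT29 was between the other lines for both LGR5 and AXIN2, and neither was called.

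TGF-beta and SMAD genes had 4 of 35 members higher and 2 lower, with 0 past the block. TGFB2, a ligand, measured 10.99 and 11.64 in HT29, against 8.45 and 7.66 in SW620 and 8.05 and 8.16 in HCT116 (3.23 ± 0.31 SE, adjusted p = 0.0106, limma). TGFB1, another ligand, measured 8.33 and 9.52 in HT29, against 10.94 and 10.84 in SW620 and 10.89 and 10.81 in HCT116 (-1.95 ± 0.31 SE, adjusted p = 0.034, limma). The ligands TGFB2 and TGFB1 thus went opposite ways. SMAD7, an inhibitor of the pathway, was 1.17 ± 0.18 higher, BMP2 1.14 ± 0.12 and the ubiquitin ligase SMURF1 0.71 ± 0.11, while SMAD1 differed by -0.80 ± 0.14 (SE). SMAD4, the shared signal carrier of the pathway, measured 9.50 and 9.32 in HT29, against 7.51 and 8.05 in SW620 and 12.19 and 12.21 in HCT116, so that the 3 lines stood apart and HT29 lay between. TGFBR2, the receptor, measured 12.23 and 12.15 in HT29, against 11.75 and 11.41 in SW620 and 10.79 and 10.74 in HCT116, and was not called.

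Lists of growth and survival genes had calls at about the share of all genes, 3.97% higher and 4.16% lower, or none. Of 28 p53 targets 1 was higher, BAX, a pore former of mitochondria (0.94 ± 0.10 SE, adjusted p = 0.0134, limma), and 1 lower, XPC, a DNA repair protein (-0.74 ± 0.10 SE, adjusted p = 0.0248, limma). CDKN1A, the p53-induced cell cycle inhibitor, measured 9.09 and 9.16 in HT29, against 8.57 and 8.34 in SW620 and 10.93 and 10.80 in HCT116, with HT29 between the others. BAX was also the 1 gene higher among 18 BCL2 family genes, with 0 lower. No gene was called among 14 cell cycle inhibitors and D cyclins or among 8 mismatch repair genes with MGMT, whose medians were -0.097 and -0.28.

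Of 29 G2/M and mitosis genes 0 were higher and 1 lower, BIRC5, the survivin gene (-0.77 ± 0.10 SE, adjusted p = 0.0218, limma), with a median of 0.042. Of 29 replication genes 1 was higher, E2F1, a factor that starts S phase (0.63 ± 0.10 SE, adjusted p = 0.0297, limma), and 1 lower, RFC4, a subunit of the clamp loader (-0.74 ± 0.09 SE, adjusted p = 0.0198, limma). Their median was -0.307, with MCM2 at -0.19 ± 0.09 and PCNA at -0.40 ± 0.21 (SE), both not called. TOP2A and CDK1 were not called either.

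Of 28 interferon-stimulated genes 4 were higher, beside 3.97% of all genes, and 0 lower, with a median of 0.027. BST2, which tethers budding viruses, measured 10.65 and 11.08 in HT29, against 6.78 and 6.75 in SW620 and 6.8 and 6.35 in HCT116 (at least 10.3-fold, adjusted p = 0.0024, limma), and alone passed with the block. SAMD9 was 2.02 ± 0.15, IFIT2 0.73 ± 0.13 and IRF7, an inducer of interferon, 0.57 ± 0.09 higher (SE), while IFIT1 was not called. IFIT2 was at background on all 6 arrays, at 7.09 and 7.29 in HT29 and 6.16 to 6.79 in the other lines, so its call sets no fold.

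Of 14 antigen presentation genes 1 was higher and 1 lower. ERAP2, which trims peptides for presentation, measured 10.95 and 10.87 in HT29, against 7.39 and 7.37 in SW620 and 6.92 and 6.64 in HCT116 (at least 10.6-fold, adjusted p = 0.00487, limma). TAP1, a peptide pump, measured 8.52 and 8.69 in HT29, against 9.88 and 10.20 in SW620 and 10.69 and 10.72 in HCT116 (-1.77 ± 0.29 SE, adjusted p = 0.0356, limma). Of 31 chemokines and NF-kB targets 2 were higher and 0 lower. NFKBIZ, a nuclear cofactor of NF-kB, measured 10.45 and 10.48 in HT29, against 7.04 and 7.21 in SW620 and 7.87 and 7.65 in HCT116 (3.02 ± 0.28 SE, adjusted p = 0.0102, limma). PTGS2, the inducible prostaglandin synthase, measured 8.99 and 10.18 in HT29, against 6.03 and 6.24 in SW620 and 7.10 and 6.93 in HCT116 (at least 4.24-fold, adjusted p = 0.0316, limma). CXCL8 and NFKBIA were not called.

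Enzymes that handle foreign compounds had 5 of 30 members higher and 0 lower. CYP3A5, a drug-oxidising cytochrome of gut and liver, measured 11.25 and 10.89 in HT29, against 6.72 and 6.87 in SW620 and 6.59 and 6.51 in HCT116 (at least 11.9-fold, adjusted p = 0.00131, limma). CYP1B1, an oestrogen- and hydrocarbon-oxidising cytochrome, measured 10.72 and 10.62 in HT29, against 6.5 and 8.05 in SW620 and 7.16 and 6.92 in HCT116 (3.51 ± 0.42 SE, adjusted p = 0.0176, limma). SULT2B1, which adds sulfate to sterols, was 9.2-fold higher (3.20 ± 0.13 SE, adjusted p = 0.00177, limma), and MGST2, a membrane glutathione transferase, 2.31-fold. CYP3A5 and SULT2B1 passed with the block.

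Of 17 aldehyde dehydrogenases 2 were higher and 0 lower. ALDH1A1 measured 13.01 and 12.87 in HT29, against 6.69 and 6.58 in SW620 and 6.34 and 6.32 in HCT116 (6.46 ± 0.15 SE, adjusted p = 0.000866, limma). ALDH4A1, an enzyme of proline breakdown, was 0.97 ± 0.11 higher (SE). ALDH1A3, the relative of ALDH1A1 that also makes retinoic acid, measured 10.45 and 10.77 in HT29, against 9.67 and 9.81 in SW620 and 12.35 and 12.24 in HCT116, the highest values being those of HCT116.

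NRF2 targets and glutathione genes had 3 of 26 members higher and 1 lower, with a median of 0.435. Beside AKR1B10, the members called were ABCC3, ABCC2 and TALDO1, a pentose phosphate enzyme (0.63 ± 0.09 SE, adjusted p = 0.0258, limma). NQO1 and GCLM, well known NRF2 targets, were not called, at 0.35 ± 0.13 and 0.31 ± 0.30 (SE).

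Among 30 ABC transporters 2 were higher and 1 lower. ABCG2, an efflux pump for drugs and urate, measured 11.29 and 10.93 in HT29, against 5.89 and 6.03 in SW620 and 7.59 and 7.43 in HCT116 (4.37 ± 0.64 SE, adjusted p = 0.0277, limma). ABCC3, which exports conjugates across the basal side, measured 12.13 and 12.11 in HT29, against 8.57 and 8.64 in SW620 and 8.38 and 8.46 in HCT116 (3.61 ± 0.12 SE, adjusted p = 0.00118, limma, 12.2-fold). ABCC2, which exports conjugates across the apical side, measured 8.07 and 7.37 in HT29, against 10.71 and 10.51 in SW620 and 10.58 and 10.58 in HCT116 (-2.87 ± 0.17 SE, adjusted p = 0.00345, limma). ABCC3 and ABCC2 thus differed in opposite directions. ABCC3 alone of the 3 passed with the block. ABCB1, the multidrug pump P-glycoprotein, measured 6.52 and 6.32 in HT29, against 8.50 and 8.01 in SW620 and 7.37 and 7.43 in HCT116, and was not called (adjusted p = 0.104, limma).

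Of 19 cholesterol synthesis genes 2 were higher, SQLE (1.74 ± 0.19 SE, adjusted p = 0.0145, limma), which oxidises squalene, and HMGCS1 (1.01 ± 0.11 SE, adjusted p = 0.0145, limma), an early enzyme of the pathway, with 0 lower and a median of 0.331. Of 28 hypoxia and glycolysis genes 1 was higher, CA12, a carbonic anhydrase of the cell surface, at 12.87 and 12.66 in HT29, against 8.22 and 7.79 in SW620 and 9.23 and 9.13 in HCT116 (4.17 ± 0.49 SE, adjusted p = 0.0165, limma). PFKFB4, a regulator of glycolysis, was the 1 lower (-1.11 ± 0.14 SE, adjusted p = 0.0216, limma), and LDHA was not called, at -0.02 ± 0.09 (SE).

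Of 25 serine synthesis genes and ATF4 targets 1 was higher and 2 lower. SLC7A1, a carrier of arginine and lysine, was 1.45 ± 0.22 higher (SE, adjusted p = 0.0302, limma). STC2, a secreted stress-induced glycoprotein, measured 6.48 and 6.64 in HT29, against 9.61 and 9.78 in SW620 and 9.84 and 9.61 in HCT116 (at least 4.64-fold lower, adjusted p = 0.00157, limma), and passed with the block. MTHFD1L, a folate enzyme of mitochondria, differed by -0.90 ± 0.09 (SE). PHGDH, the entry enzyme of serine synthesis, measured 11.48 and 11.49 in HT29, against 10.02 and 10.81 in SW620 and 12.39 and 12.42 in HCT116.

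HOX genes, which record position along the body axis, had 3 of 27 members higher and 2 lower. HOXA2 measured 10.79 and 10.49 in HT29, against 8.47 and 8.13 in SW620 and 8.11 and 7.85 in HCT116 (2.50 ± 0.15 SE, adjusted p = 0.00389, limma). HOXB9 was 1.63 ± 0.15 and HOXB5 0.93 ± 0.13 higher (SE). HOXB8, a neighbour of HOXB9 in the cluster, differed by -0.88 ± 0.10 and HOXC9 by -1.25 ± 0.12 (SE), both called lower. HOXA2 alone passed with the block. No cancer-testis antigen gene was called among 19. Of 19 enteroendocrine and neuroendocrine genes 0 were higher and 2 lower, SYT1 and PAX6, a factor of hormone cells at 6.73 and 6.54 in HT29, against 7.91 and 8.45 in SW620 and 7.69 and 8.04 in HCT116 (adjusted p = 0.033, limma). CHGA, the granule protein of hormone cells, was at background on all 6 arrays.

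**Figure D4:**
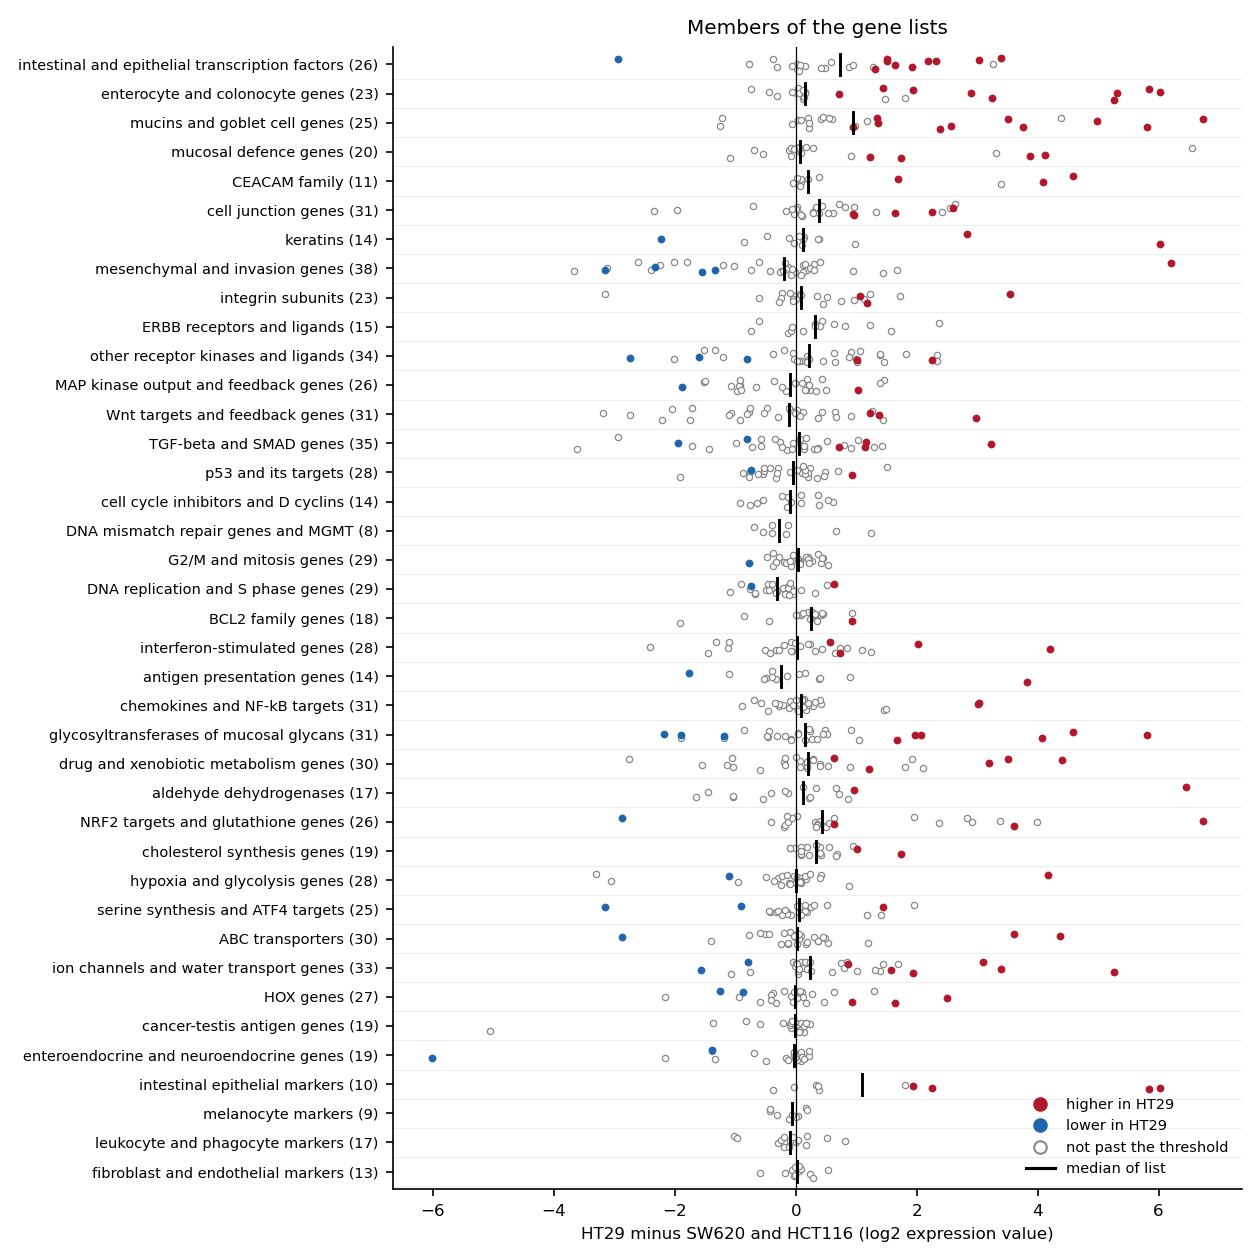
Each point is a tested member of 1 of 39 gene lists, placed by its HT29 minus SW620 and HCT116 difference in log2 expression values (x axis), in red where higher, blue where lower and open where not past the threshold, with a black bar at the list's median and the number of members tested in brackets. Red points are most frequent in the lists of the gut epithelium at the top, while the medians of nearly all lists lie within 1 of 0.

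Genes lower in HT29 were unevenly placed in the genome. On chromosome 8, 73 of 585 tested genes were lower (12.5%), beside 4.16% of all genes, and 22 were higher (3.76%). The next shares of genes lower were 7.72% on chromosome 14, 6.70% on chromosome 21, 6.60% on chromosome 3 and 6.58% on chromosome 17. The largest shares higher were 7.90% on chromosome 13 and 7.87% on chromosome 15, beside 3.97% of all genes.

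Within chromosome 8 the genes lower lay together. When the tested genes were cut into 265 blocks of about 60 neighbours over the genome, a size chosen after the values were seen, the first 4 blocks of chromosome 8, from RPL23AP53 at the tip of the short arm to PENK on the long arm, held 64 genes lower and 0 higher among 240 (26.7% lower). In the last of these 4 blocks the genes lower ended at POMK, apart from LYN nearer to PENK. Outside these 4, no block held more than 10 genes lower. The 64 genes had a median difference of -1.36, with quartiles at -1.50 and -1.06 and a range from -3.55 to -0.60. They were picked by adjusted p, which leaves out small differences, so these values do not describe the whole stretch. All 240 genes had a median of -0.421, which was -0.332 against SW620 and -0.434 against HCT116. The block from CHRNA2 to LINC03042, which holds FGFR1, had 23 of 60 genes lower and the lowest median of the genome, -0.876, with -0.814 against SW620 and -0.940 against HCT116.

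The other end of chromosome 8 differed. Among its remaining 345 genes 9 were lower and 22 higher, with a median of 0.033. The block from MED30 to ST3GAL1 held 11 genes higher and 1 lower of 60 and had the highest median of all blocks, 0.602, with 0.746 against SW620 and 0.441 against HCT116. SQLE and ST3GAL1, named above, lie in it. The proto-oncogene MYC lies in it too and had a difference of -0.01 that was not called; it was looked up after the block was seen. The first block of chromosome 13, from BAGE5 to FLT1, held 8 genes higher and 0 lower, with a median of 0.438.

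**Figure D5:**
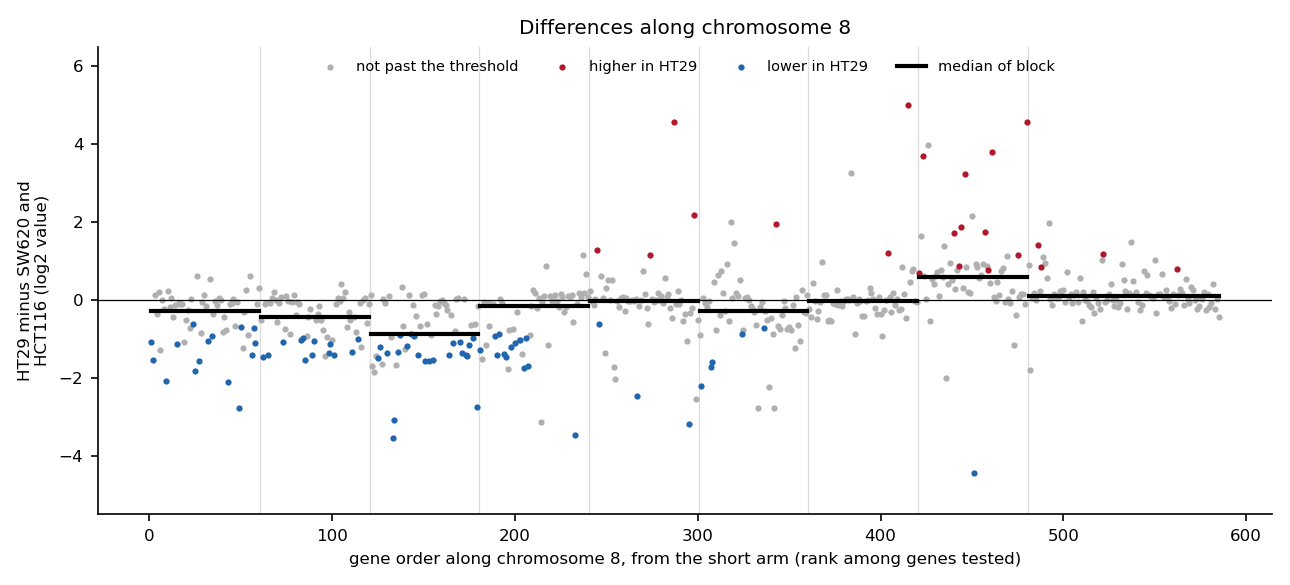
HT29 minus SW620 and HCT116 difference in log2 expression value (y axis) of each tested gene of chromosome 8 in gene order from the short arm (x axis, rank), with red for genes higher, blue for genes lower and black bars for the medians of 9 blocks. The blue points crowd the first 4 blocks, most of them between -1 and -2, and the red points lie in the later blocks.

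The HT29 difference was also compared between the sorted populations. An interaction of HT29 with the population was called for 0 genes by limma, with 35 of 16910 at an unadjusted p under 0.05 and a lowest adjusted p of 1. That fit counts the difference between SW620 and HCT116 as error. A fit with the 3 lines as a fixed factor left 1 residual degree of freedom and also called 0 genes. It had 664 genes at an unadjusted p under 0.05 and a lowest adjusted p of 0.0509 (limma). In the first fit, the 5 genes of smallest p were those whose HT29 arrays stood farthest apart from each other while the others were close. CLEC3A, a lectin of cartilage, measured 8.09 and 10.93 in HT29, against 6.18 and 6.15 in SW620 and 6.38 and 6.22 in HCT116. VGLL1, a cofactor of TEAD factors, measured 8.92 and 10.50 in HT29, against 6.79 and 6.66 in SW620 and 6.95 and 6.95 in HCT116. RCN1, a calcium-binding protein of the endoplasmic reticulum, measured 9.49 and 10.91 in HT29, against 12.06 and 12.04 in SW620 and 12.15 and 12.10 in HCT116. CNN3 measured 6.95 and 8.15 in HT29, against 12.44 and 12.38 in SW620 and 12.42 and 12.41 in HCT116, and TGFB1 completed the 5.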

How the data were processed

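Gene expression was measured on Affymetrix Human Gene 1.0 ST arrays. The values deposited by the authors are on a log2 scale, made with Affymetrix Expression Console per the submitters' processing notes. The log2 scale was read from the values, and neither software version, summarisation nor normalization is stated by the labels. Array medians lay between 8.03 and 8.10, and no further normalization was applied. The number of arrays limits the precision.

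Of 33297 probe sets, 19460 named 1 gene, 1754 several and 12083 none, by the platform annotation with symbols updated through RefSeq GRCh38.p14. Each gene took its probe set of highest mean on all 8 arrays. Of 18417 genes, 1507 with a mean under 5.735, the median of 360 odorant receptor probe sets, were left out, and 16910 were tested.

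The test was limma 3.58.1 in R 4.3.3 (lmFit and eBayes, two-sided), with HT29 and the sorted population as terms. Benjamini-Hochberg adjustment was over all genes tested. The fit was checked on simulated data with noise independent between arrays. That check cannot show how calls are affected by the 2 arrays of a line being alike. Residual degrees of freedom were 3 and the median SE was 0.156. Genes named are the 15 largest differences in each direction among genes past the threshold, without overlap and above the odorant receptors' 95th percentile on every array of the brighter side, up to 4 called members per direction of each of 39 gene lists, 2 fixed anchor genes of each list and the 5 smallest interaction p-values. The members and lists were chosen with earlier results of these data known. Alternatives covered the covariate, the cell line as a random block or fixed factor, line means, each line and each population alone, normalization, filter, choice of probe set, eBayes settings and each array left out.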

Additional observations from a re-analysis of the deposited data

Results flagged for a closer look

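Among the 4 SW620 and HCT116 arrays, 1 array stood far from the other 3 for 7 of the 177 named genes, measured as its gap to the nearest other array over the range of the 4. Chance would flag about 1 in 20 groups of 4 independent arrays. These arrays are sorted fractions of SW620 and HCT116, not independent, so that rate does not apply to them. The 7 of 177 flagged are a smaller share than 1 in 20, and no common cause of the flags was tested. The share of the range was 0.963 for KRT23, 0.951 for EFNB1, 0.917 for QKI, 0.888 for BST2, 0.864 for E2F1, 0.853 for LDHA and 0.834 for SOX10, a factor of neural crest cells. For KRT23, EFNB1 and QKI the array apart was the SW620 ABCB5-positive one, which also had the highest mean of leukocyte markers, and for BST2 it was the HCT116 ABCB5-positive one.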

How the results depend on the processing

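The counts of 672 genes higher, 703 lower and 357 past the 4-fold rule moved most with how the spread between lines was counted. With no population covariate 1186 genes were higher and 1279 lower. With the cell line as a random block the counts were 108 higher, 65 lower and 160 past the 4-fold rule. With line means, the ABCB5-positive arrays alone and the ABCB5-negative arrays alone they were 0, 0 and 0 by limma, with 1160, 1051 and 1222 genes at an unadjusted p under 0.05. With the 3 lines as a fixed factor, which leaves the difference between SW620 and HCT116 out of the error, they were 3497, 4102 and 565, and with all 8 arrays in such a fit 3154, 3699 and 565. Against SW620 alone they were 3146, 3587 and 814, and against HCT116 alone 3683, 4121 and 742. Leaving out 1 array gave 0 to 335 genes higher, 0 to 268 lower and 0 to 289 past the 4-fold rule, with 0 of each (1634 at an unadjusted p under 0.05) without the HT29 ABCB5-negative array. Quantile normalization, centring, the filters, the choice of probe set and the eBayes settings kept all 3 counts within 1.5 times. Of the named genes, 7 changed sign against SW620 alone and passed the threshold there. Their differences were 0.87 for ALDH1A3, -1.42 for AXIN2, 0.67 for CDKN1A, -2.63 for LGR5, 1.63 for SMAD4, -1.39 for SPRY2 and -0.73 for VIL1. PHGDH did so against HCT116 alone, at -0.92. Named genes that changed sign without passing in either fit, such as ABCB5, are not counted. None of these 8 was called in the main fit, against SW620 and HCT116 together, though each passed in the fit against the single line named. Levels at background set bounds on folds only.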
